A study of Mus musculus with 2 samples.

Results

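The miR-1, miR-133 and miR-206 genes encode the microRNAs (miRNAs) that are best known from striated muscle. All 8 mouse genes of the family, Mir206, Mir133b, Mir1a-1, Mir133a-2, Mir1a-2, Mir133a-1, Mir1b and Mir133c, were taken by symbol from the 2202 miRNA genes counted in each library. The libraries hold RNA shorter than 30 bases, selected from total RNA of the gastrocnemius of the calf in female mice aged 10 days. The mice were B6CASTF1/J, a first-generation hybrid of C57BL/6J and CAST/EiJ. There are 2 samples, biological replicates 1 and 2, and the labels name no treatment, transgene or second genotype. They therefore form 1 group, and the data give levels, the spread between the libraries and the sharing of reads among gene copies. The labels give the samples different animal numbers and biosample entries but 1 common donor entry, so the spread between them is that of separate animals on the labels alone.

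Replicate 1 held 3510897 reads on the sense strand of miRNA genes and replicate 2 held 3949733, and levels are given per 1000000 such reads (CPM). A further 3469647 and 4718603 reads, 42.6% and 46.4% of the reads in the file, aligned to several places and were counted on no gene. This amounts to 0.988 and 1.19 set-aside reads for each counted sense read. For a gene whose reads can be placed at 1 site, a count of 0 allows up to 3 counts, which is 0.854 CPM in the first library and 0.760 in the second. Intervals and limits cover counting error only, since reads without molecular identifiers are not independent molecules.

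The family is known for its arrangement in pairs, each a miR-1 or miR-206 gene and a miR-133 gene made from a common primary transcript. In muscle, miR-1 and miR-206 are known to favour differentiation of myoblasts. miR-133 is known for promoting myoblast proliferation and for restraining serum response factor, a transcription factor of muscle genes. miR-206 and miR-133b are known from skeletal muscle, whereas miR-1 and miR-133a are also made in the heart. A hairpin precursor can yield a miRNA from its 5′ arm (5p) or its 3′ arm (3p), and bases 2 to 8 of the miRNA, the seed, pair with target transcripts. Counts are per gene, so the arms cannot be told apart here, and a read of this length holds a whole miRNA whatever the length of the hairpin.

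The mature sequences show which reads can be assigned to a single gene, and the seed is in capitals. RefSeq (GRCm38.p6) listed 5 mature sequences for 3 of the 8 genes, Mir206 and Mir133b on chromosome 1 and Mir1a-1 on chromosome 2, all on the plus strand. The table used here holds no entry of this kind for Mir133a-2, Mir1a-2, Mir133a-1, Mir1b and Mir133c.
miR-206-3p: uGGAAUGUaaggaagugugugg
miR-206-5p: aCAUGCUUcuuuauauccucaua
miR-1a-1-5p: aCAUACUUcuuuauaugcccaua
miR-133b-3p: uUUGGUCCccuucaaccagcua
miR-133b-5p: gCUGGUCAaacggaaccaaguc
The hairpins of the most abundant gene and of its partner are shown with both arms in capitals, Mir206 at chr1:20679010-20679082 and Mir133b at chr1:20682769-20682887.
Mir206: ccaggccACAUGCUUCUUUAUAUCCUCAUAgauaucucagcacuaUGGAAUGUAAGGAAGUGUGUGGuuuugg
Mir133b: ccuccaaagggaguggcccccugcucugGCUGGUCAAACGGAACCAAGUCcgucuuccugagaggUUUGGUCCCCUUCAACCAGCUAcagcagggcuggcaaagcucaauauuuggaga

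The 5p arms of Mir206 and Mir1a-1 were identical at 20 of 23 positions, counted from 1 at the 5′ end of miR-206-5p. The substitutions from miR-206-5p to miR-1a-1-5p were G5A, C17G and U19C, so their seeds differed at position 5. The 3p arms of Mir206 and Mir133b carried the seeds that name the family. The letters GGAAUGU of the miR-206-3p seed occurred in the precursors of Mir206, Mir1a-1 and Mir1a-2, and in 0.590% of all 2202 annotated precursors. The letters UUGGUCC of the miR-133b-3p seed occurred in those of Mir133b, Mir133a-2, Mir133a-1 and Mir133c, and in 0.409% of all. Only the precursor's own strand was searched, and a match of these letters does not show that a miRNA is made there. Among the 1738 mature sequences of the table, miR-206-3p shared its seed with miR-6349 and miR-6382, outside the family. Their genes Mir6349 and Mir6382 had 0 reads in either library. For Mir1a-1 the table lists the 5p arm alone and for Mir1a-2 no arm, so their 3p arms could not appear in this search.

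Sequence identity set apart the members whose reads can be placed from those whose reads are lost. In Mir206 none of 52 windows of 22 bases occurred at another annotated precursor, and the nearest sequence to miR-206-3p elsewhere, in Mir1a-1, Mir1a-2 and Mir1b, had 4 mismatches. Mir133b shared 0 of 98 windows of 22 bases, but miR-133b-3p differed from the nearest sequence in Mir133a-1 and Mir133a-2 by 1 base alone, at its last position, 22. A miR-133b-3p read that is 1 base shorter at that end therefore matches 3 genes. Of the 2 windows of 21 bases in miR-133b-3p, 1 had a single place, and of its 5 windows of 18 bases it was 1 as well. The 5p arm of Mir133b had 3 mismatches to its nearest sequence, and all of its 5 windows of 18 bases had a single place.

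The miR-1a and miR-133a copies shared longer stretches. Mir1a-1 shared 7 of 56 windows of 22 bases with Mir1a-2 and, on the other strand, with Mir1b, and these covered bases 45 to 72 of its hairpin of 77 bases, on the 3′ side. Its 5p arm, which begins at base 10, had 2 mismatches to Mir1a-2 and Mir1b, and both of its 22-base windows had a single place. Mir133a-2 and Mir133a-1 shared 13 windows in 2 blocks, which covered bases 21 to 44 and 54 to 84 of Mir133a-2. In the shorter hairpin of Mir133a-1 this was 13 of 47 windows, or 27.7%, against 13 of 83, or 15.7%, in Mir133a-2. Mir133c shared 0 of 59 windows, and its longest stretch in common with a member was 16 bases, with Mir133b. Only annotated precursors were searched, so identical sequence elsewhere in the genome was not counted.

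**Figure D1:**
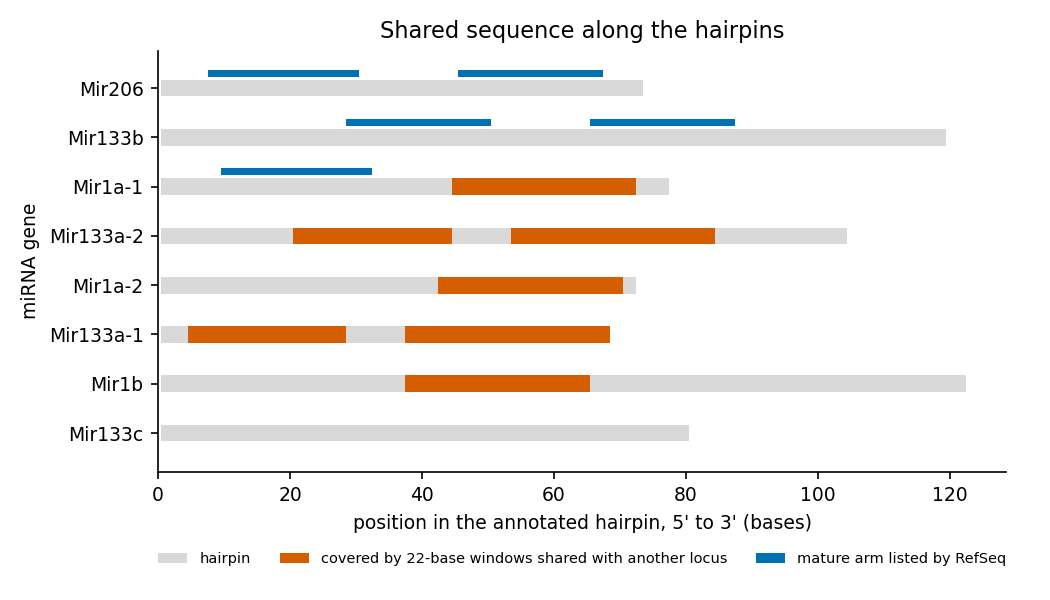
Annotated hairpins of the 8 genes drawn from the 5′ end in bases (grey), with the stretches covered by 22-base windows that recur at another annotated locus (orange) and the mature arms listed by RefSeq (blue). Mir206, Mir133b and Mir133c have no orange stretch, Mir1a-1 and Mir1a-2 have 1 on the 3′ side, Mir1b has 1 at bases 38 to 65 of 122, and each Mir133a gene has 2.

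The genes lie at 4 places in build mm10. Mir206 and Mir133b (ENSMUSG00000065559.1 and ENSMUSG00000065480.1) lie 3686 bases apart, both in exons of the lincRNA Gm28653. Mir1a-1 (ENSMUSG00000070144.1, chromosome 2, 180389048 to 180389124) and Mir133a-2 (ENSMUSG00000065460.1, chromosome 2, 180398379 to 180398482) lie 9254 bases apart, and no GENCODE M21 gene contains them. Mir1a-2 (ENSMUSG00000106348.1, chromosome 18, 10785481 to 10785552) and Mir133a-1 (ENSMUSG00000065399.2, chromosome 18, 10782909 to 10782976) lie 2504 bases apart on the minus strand. They are in introns of Mir133a-1hg, and on the opposite strand the ubiquitin ligase gene Mib1 spans both in intronic sequence. Mir1b (ENSMUSG00000080662.1, chromosome 18, 10785446 to 10785567) is on the plus strand in an intron of Mib1 and contains the whole of Mir1a-2 in the opposite orientation. Mir133c (ENSMUSG00000098539.1, chromosome 2, 29475215 to 29475294) is alone, opposite an intron of Med27, which encodes a subunit of the Mediator complex.

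Mir206 held nearly all counted reads of the family. It had 407082 reads in replicate 1 and 376268 in replicate 2, which is 115948 and 95264 CPM (Wilson 95% intervals 115614 to 116284 and 94975 to 95554). This was 99.9% of the family's counted reads in each library, with the family as a whole at 10.6% ± 1.46 (SD, n = 2) of all counted sense reads. Family reads that match several genes are in neither share. Mir206 was lower in replicate 2, and the counting intervals of the libraries did not overlap. Of all reads in the file, including those set aside, Mir206 held 4.99% in replicate 1 and 3.70% in replicate 2. Reads set aside outnumbered those of Mir206 by 8.52-fold and 12.5-fold, so the level of a miRNA whose reads were set aside cannot be compared with that of Mir206.

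The other 7 genes together had 357 reads in replicate 1 and 530 in replicate 2, or 118 ± 23.0 CPM (SD, n = 2). Mir1a-2 had 237 and 345 of these reads (67.5 and 87.3 CPM), and Mir133b had 96 and 135 (27.3 and 34.2 CPM). Mir133a-1 had 9 and 22 reads (2.56 and 5.57 CPM), and Mir1a-1 had 12 and 15 (3.42 and 3.80 CPM). Mir133a-2 had 2 and 6 reads (0.570 and 1.52 CPM), Mir1b had 1 and 7 (0.285 and 1.77 CPM), and Mir133c had 0 in either library. Values of all 6 genes with reads were higher in replicate 2, but of these only Mir1a-2 passed the test between the libraries given further on, and 182 of 395 tested genes had a higher value in replicate 2. At 2 CPM in both libraries 5 of the 8 genes were detected, against 15.1% of all annotated miRNA genes. In bulk tissue, fewer cells of a type and less RNA per cell cannot be told apart.

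**Figure D2:**
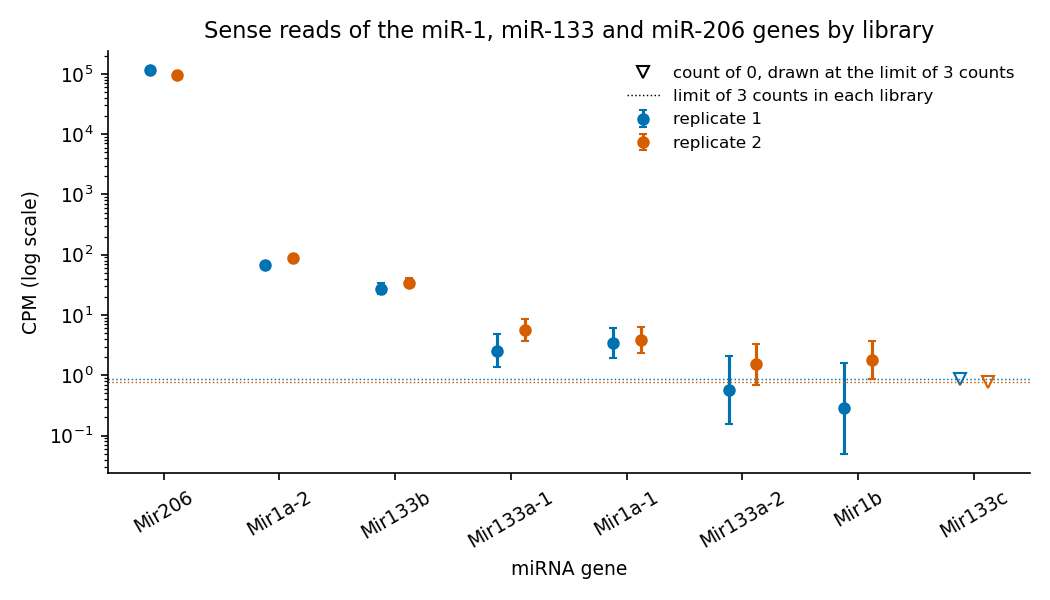
Level of each gene in CPM on a log scale in replicates 1 and 2, with Wilson 95% intervals, dotted lines at the limit of 3 counts and open triangles for a count of 0. Mir206 stands at 115948 and 95264 CPM, and the next gene, Mir1a-2, at 67.5 and 87.3 CPM.

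In order of mean level, Mir206 was followed by Mir1a-2, Mir133b, Mir133a-1, Mir1a-1, Mir133a-2, Mir1b and Mir133c. The values of neighbours in this order overlapped between Mir133a-1 and Mir1a-1 and between Mir133a-2 and Mir1b, and not between the others. For Mir1a-1 and Mir133a-2 the counting intervals overlapped in replicate 1 (1.96 to 5.97 and 0.156 to 2.08 CPM). The 1 read of Mir1b in replicate 1, 0.285 CPM, lay under the limit of 0.854 CPM for a count of 0, so Mir1b and Mir133c were not separated there. The spread between the libraries, as the SD over the mean, was 13.8% for Mir206, 15.7% for Mir133b, 18.1% for Mir1a-2 and 7.44% for Mir1a-1. The common biological coefficient of variation that edgeR estimated over 320 genes was 0.189. It leaves out counting error, which the SD over the mean includes, so these are unlike measures. With 12 and 15 reads, the low value of Mir1a-1 does not show a small spread between animals. For Mir133a-1, with 9 and 22 reads, the SD over the mean was 52.3%. Among all genes Mir206 ranked at 1, with Mir378a below it at 77380 and 94360 CPM. In replicate 2 the interval of Mir206 still lay above that value of Mir378a.

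Far lower in the ranking, Mir1a-2 ranked at 190, between Mir7689 (80.2 ± 2.24 CPM) and Mir340 (75.1 ± 5.89 CPM), both within its range. Mir133b ranked at 222, between Mir760 (31.3 ± 34.2 CPM) and Mir345 (30.5 ± 4.10 CPM). Mir133a-1 ranked at 312, between Mir3058 (4.16 ± 0.157 CPM) and Mir1955 (3.83 ± 1.84 CPM), and Mir1a-1 at 317, between Mir7083 (3.66 ± 0.873 CPM) and Mir1224 (3.58 ± 4.25 CPM). All of these are SD with n = 2, and each of these neighbours overlapped the member beside it. The ranks of Mir1a-2, Mir133a-1 and Mir1a-1 describe the reads that were counted, not the miRNA.

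**Figure D3:**
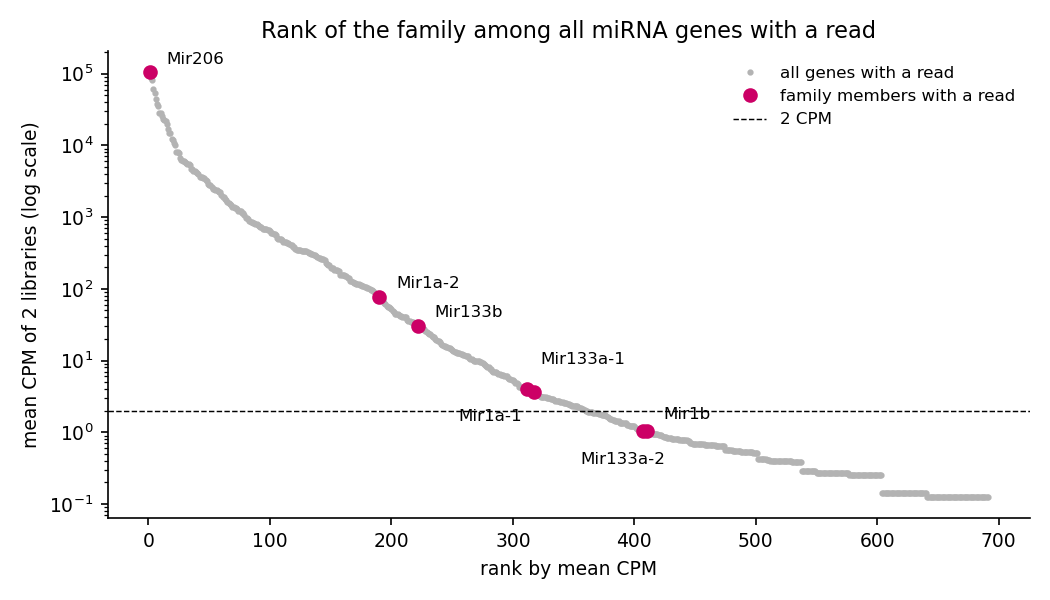
Mean CPM of both libraries on a log scale against rank for every miRNA gene with a read (grey) and for family members (pink), with a dashed line at 2 CPM. Mir206 is at rank 1, the other members with a read lie at rank 190 and beyond, and Mir133a-2 and Mir1b fall under the line.

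Members of a bicistronic pair differed widely in counted reads. For each Mir133b read, replicate 1 had 4240 Mir206 reads (exact binomial 95% interval 3472 to 5235) and replicate 2 had 2787 (2355 to 3324). The ratio averaged 3514 ± 1028 (SD, n = 2). Reads of miR-133b-3p that end 1 base early match the Mir133a genes too, and their number cannot be read from these counts. For each Mir133a-1 read there were 26.3 Mir1a-2 reads in replicate 1 (13.6 to 58.3) and 15.7 in replicate 2 (10.2 to 25.4). For each Mir133a-2 read there were 6 Mir1a-1 reads in replicate 1 (1.34 to 55.2) and 2.5 in replicate 2 (0.917 to 7.86). In all 3 pairs the miR-1 or miR-206 gene had the higher count in both libraries, and the interval of the last pair in replicate 2 included 1. Mir133a-1 and Mir133a-2 each lose 13 windows of 22 bases to shared sequence, and Mir1a-1 and Mir1a-2 each lose 7. Reads of these genes are thus not equally placeable, and their ratios describe counted reads, not the miRNAs.

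The pair with Mir1a-2 also exceeded its copy on chromosome 2. Mir1a-2 had 19.8 reads for each Mir1a-1 read in replicate 1 (exact binomial 95% interval 11.1 to 38.8) and 23.0 in replicate 2 (13.8 to 41.5). Both copies lose the same 7 windows, and 44 windows of Mir1a-2 and 49 of Mir1a-1 are left. The lost windows cover bases 43 to 70 of Mir1a-2 and 45 to 72 of Mir1a-1, on the 3′ side. A read holds a whole miRNA from 1 arm, so the windows left do not give the share of reads that can be placed. The ratio thus describes counted reads only. Mir133a-1 had 4.50 reads for each Mir133a-2 read in replicate 1 (0.931 to 42.8) and 3.67 in replicate 2 (1.44 to 11.1). The ratio of the Mir133a copies held its direction in both libraries, but with 11 and 28 reads in all it was not separable from 1 in replicate 1.

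Set beside other duplicated miRNA genes, the miR-1a copies were unequal in counted reads and the miR-133a copies were sparse. Over 53 groups of copies, named by symbols that differ in a final number, the 3 with the highest summed counts were Mirlet7f (2777 CPM), Mir128 (1503 CPM) and Mir16 (1003 CPM). Mir1a ranked at 14 with 81.0 CPM and Mir133a at 26 with 5.11 CPM. In 28 groups with at least 10 reads and no copy at 0, the median ratio of the highest copy to the lowest was 4.58. The fold was 21.5 for Mir1a, which 6 groups surpassed, and 3.89 for Mir133a. Genes that share a 22-base window with another place, among them 5 of the 8 members, were detected in 5.72% of 1032 cases, against 23.3% of the other 1170 genes.

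**Figure D4:**
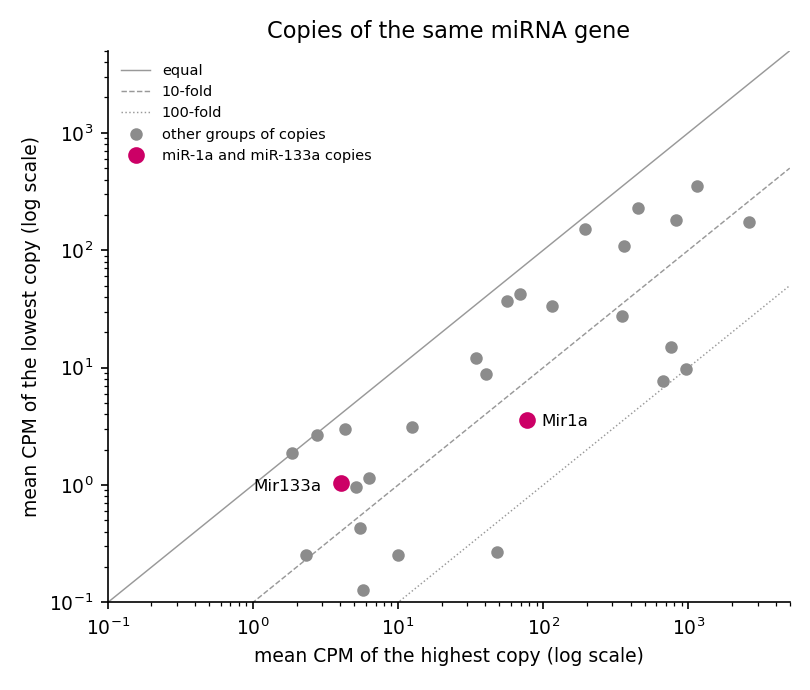
Mean CPM of the lowest copy against that of the highest copy in 28 groups of duplicated miRNA genes, both on log scales, with lines for equal levels, 10-fold and 100-fold. The Mir1a copies lie between the 10-fold and 100-fold lines, and the Mir133a copies between equal and 10-fold.

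Reads on the strand opposite Mir1a-2 were few, and those were the reads counted as Mir1b. Of the reads on both strands of Mir1a-2, 1 of 238 in replicate 1 (0.420%, exact 95% interval 0.0106% to 2.32%) and 7 of 352 in replicate 2 (1.99%, 0.803% to 4.05%) were antisense. Over 2138 genes that face no other miRNA gene, the antisense share was 0.00111% and 0.00135%. The Mir1a-2 percentages leave out reads of the windows shared with Mir1a-1, which match several places. They are therefore not directly comparable with the share of the other genes. The 6 members without such a neighbour had 0 antisense reads. For Mir206 this allows a share of up to 0.000737% in replicate 1 and 0.000797% in replicate 2. Where strand was ignored, reads over Mir1a-2 and Mir1b were ambiguous and both genes stood at 0 in each library, while the counts of the other members were the same. Mir1b also shares 7 windows with Mir1a-1, so reads of that stretch do not point to 1 gene.

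Each gene's reads were tested between the libraries with an exact binomial test, two-sided, which compares these libraries and not conditions. With 1 library a side, its p covers counting error and leaves out variation between animals. For a gene with many reads, a small difference therefore gives a very small p. Benjamini-Hochberg adjustment ran over the 395 genes with at least 10 reads in all, 5 of them members. At an adjusted p under 0.05 and at least 2-fold, 0 of the 5 members were called, against 7.09% of the tested genes. At an adjusted p under 0.05 alone it was 2 of 5, against 41.3%, with 1 lower in replicate 2 (24.3% of the tested genes) and 1 higher in replicate 2 (17.0%).

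The lower gene was Mir206, whose level was 1.22-fold higher in replicate 1 (95% interval 1.21 to 1.22), with an exact p too small for the software to represent. Its log2 ratio of replicate 2 over replicate 1 was -0.28, and 26.1% of the tested genes had a lower one. The higher gene was Mir1a-2, 1.29-fold higher in replicate 2 (1.09 to 1.53, exact binomial adjusted p = 0.00704). Scaled to all reads in the file, Mir1a-2 no longer passed (adjusted p = 0.131). Mir133b was 1.25-fold higher in replicate 2 (0.955 to 1.64, exact binomial adjusted p = 0.193). Mir133a-1 was 2.17-fold higher (0.962 to 5.36, exact binomial adjusted p = 0.103) and Mir1a-1 1.11-fold (0.486 to 2.60, exact binomial adjusted p = 0.904). Mir133a-2 and Mir1b had too few reads for the test, and the ratios of replicate 2 over replicate 1 were 2.67 (0.477 to 27.0) and 6.22 (0.799 to 280). The median log2 ratio of the 5 tested members was 0.32, beside -0.03 over all 395 genes.

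**Figure D5:**
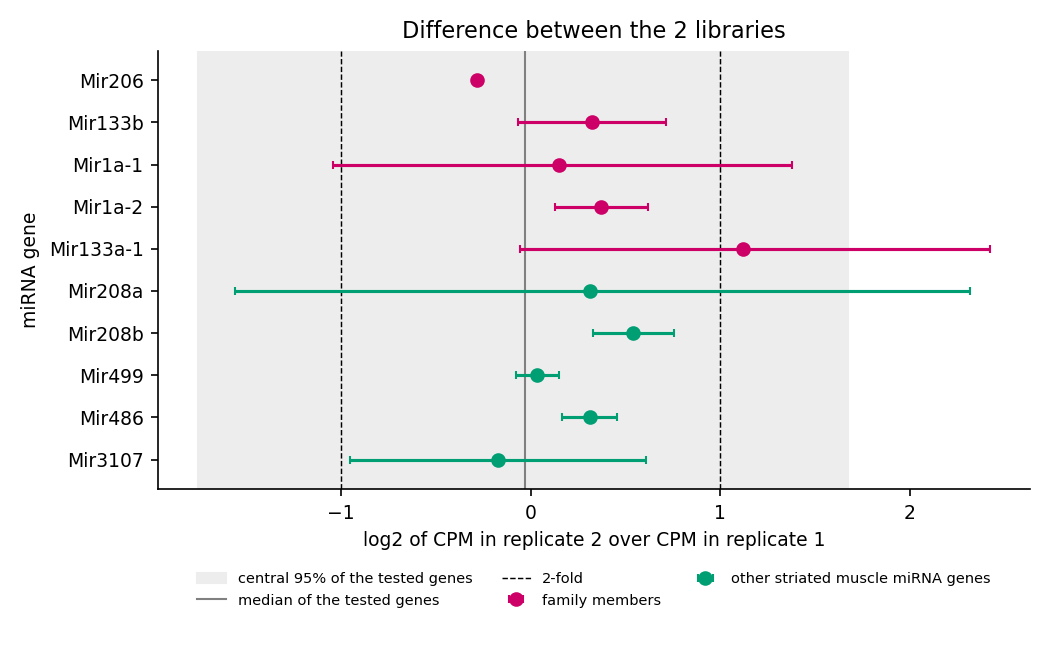
Log2 of CPM in replicate 2 over replicate 1 for the 5 tested members (pink) and 5 other striated muscle miRNA genes (green), with exact 95% intervals, dashed lines at 2-fold, and the median and central 95% of the 395 tested genes in grey. Mir206 lies below 0, and the other 4 members lie above 0 with wide intervals for Mir133a-1 and Mir1a-1.

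Of 5 other striated muscle miRNA genes, all tested, 0 were called with the 2-fold limit, and at an adjusted p under 0.05 alone 2 were higher and 0 lower in replicate 2. Mir208b, which lies in a slow myosin heavy chain gene, had 290 and 475 reads (82.6 and 120.3 CPM) and was 1.46-fold higher in replicate 2 (exact binomial adjusted p = 1.72e-06). Mir486, in the ankyrin gene Ank1, had 666 and 930 reads and was 1.24-fold higher (exact binomial adjusted p = 8.10e-05). Mir499, in another slow myosin gene, stood at 336 and 344 CPM (1.02-fold, 0.946 to 1.11). Mir208a, known from the heart, had 5 and 7 reads, and Mir3107, opposite Mir486, had 30 in each library. Their median log2 ratio was 0.28.

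The tissue label was checked against marker lists. Of 9 skeletal muscle genes on the list 8 were detected, but 6 of the 9 are family members, and the share of 11.7% of sense reads in replicate 1 and 9.61% in replicate 2 was almost wholly Mir206. The check apart from the family rests on Mir499, Mir208b and Mir486, all 3 detected. Detection alone does not set muscle apart, since all genes of the erythroid, leukocyte and liver lists were detected too. The liver gene Mir122 stood at 491 CPM in replicate 1, above Mir499, Mir486 and Mir208b (336, 190 and 82.6 CPM). In replicate 2, at 176 CPM, it lay above Mir208b (120 CPM) but below Mir499 and Mir486 (344 and 235 CPM). The values of the 8 skeletal muscle genes other than Mir206 were higher in replicate 2. The heart gene Mir208a stood at 1.42 and 1.77 CPM. The endothelial gene Mir126a held 4.20% and 4.63%, and 6 smooth muscle and stromal genes, 5 of them detected, held 2.75% and 3.28%. In that list Mir143 went from 22806 CPM in replicate 1 to 29190 in replicate 2 and Mir145a from 675 to 702. The other 4 had lower values in replicate 2, with Mir214 at 3900.4 and 2781 CPM and Mir199a-2 at 55.5 and 41.3 CPM. Of these, Mir199b moved little, at 76.3 and 71.9 CPM, and Mir199a-1 had almost no reads, at 0.285 and 0.253 CPM. Of 10 neural and glial genes 3 were detected and 4 were at 0 in both libraries, namely Mir124a-1, Mir124a-2, Mir124a-3 and Mir9-2, and the list held 0.0296% and 0.0547%. All 3 copies of Mir124a and all 3 of Mir9 share a window with another place, so their low counts do not measure neural RNA. Erythroid genes (2 of 2 detected) held 0.207% and 0.187%, leukocyte genes (5 of 5) 0.110% and 0.0974%, epithelial genes (5 of 7) 0.0197% and 0.0125%, and the liver gene Mir122 0.0491% and 0.0176%. Replicate 2, where Mir206 was lower, had a higher share of Mir126a and of the smooth muscle and stromal list through Mir143. The neural list was also higher there, mostly through Mir137 and Mir338, and more reads were set aside. Shares of the erythroid, leukocyte and epithelial lists and of Mir122 were lower there, and the other skeletal muscle genes were higher. The part of any of these in the difference of Mir206 was not tested.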

How the data were processed

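Small RNA of gastrocnemius muscle was sequenced in 2 samples. The deposited files hold raw read counts per miRNA gene, not normalized by the authors, in an unstranded, a sense and an antisense column; the strands were read from the layout. The build was mm10 and the annotation GENCODE M21, per the descriptions deposited with the counts, with the aligner and the trimming not given in the sources used here. Totals and tests exclude the 4 summary rows. In replicates 1 and 2, 42.6% and 46.4% of reads had several places, 11.8% and 12.3% had none, and 2.55% and 2.52% lay outside miRNA genes.

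All 2202 gene identifiers matched GENCODE M21. CPM used sense totals of 3510897 and 3949733. Libraries were compared with an exact conditional binomial test in SciPy 1.17.1 (log2 ratios with 0.5 added to each count). With 1 group there was no contrast for edgeR 4.0.16 (R 4.3.3), which gave TMM factors and the common biological coefficient of variation over genes with at least 10 counts in each library. DESeq2 1.42.0 gave size factors as an alternative scaling. Windows of 18, 20, 21, 22 and 24 bases of the GENCODE precursors were compared on both strands, leaving out precursors that overlap the gene itself. Sequences printed are from RefSeq (GRCm38.p6).

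The named genes are the 8 members, 5 other striated muscle genes and the 3 largest groups of copies. Also named are the neighbours in rank of members with at least 10 counts. Mir6349 and Mir6382 were added from the seed search. From the marker lists came Mir126a, Mir122, Mir143, Mir145a, Mir214, Mir199a-1, Mir199a-2, Mir199b, Mir124a, Mir9, Mir137 and Mir338. The members and lists were chosen with earlier results of these data known. With 2 libraries of 1 group, no gene was named for a similar pattern. Other scalings, strand, filters, fold limits, window lengths and each single library were tried as alternatives.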

Additional observations from a re-analysis of the deposited data

How the results depend on the processing

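Over 25 results, 110 of 132 alternative values kept the direction and side of the threshold of a test, stayed within 1.5 times for a count of genes, or moved by no more than 1 SD between the replicates. Some of these 110 values could not have changed, so their number does not measure stability. With 2 replicates, leaving out 1 always stays within 1 SD, for any gene. Mir133c was at 0 whatever the scaling, and a filter on counts leaves a log2 ratio as it was and can alter its adjusted p only. For sparse members the shifts were large: without replicate 2 Mir1b went from 1.03 to 0.285 CPM and Mir133a-1 from 4.07 to 2.56, and without strand Mir1b was 0. Scaled to all reads in the file, the family share was 4.35% and the level of Mir206 43456 per 1000000; without strand they were 12.6% and 126229. These follow from the larger and the smaller denominator. Scaling to all reads shifted the median log2 ratio of all tested genes by -0.15, an alternative chosen after seeing the data. Under it Mir206 stood at -0.43, Mir133b at 0.17 and Mir133a-1 at 0.92, Mir1a-2 at 0.22 with the exact binomial adjusted p of 0.131, and Mir1a-1 at -0.0096, a reversal of 0.14. Relative to the shift, the 4 tested members other than Mir206 stayed above the median. TMM factors, DESeq2 size factors and a total without the family changed no direction and no side of the threshold of a member. Genes called numbered 16 of 320 with at least 10 counts in each library and 163 without a fold limit, against 28, and members called 2 without a fold limit, against 0. A single place was found for 85.2% of 18-base and 88.2% of 20-base windows of the listed mature sequences, against 100% of 22-base windows. The list holds no arm of Mir133a-1, Mir133a-2 or Mir1a-2 and no 3p arm of Mir1a-1. These percentages thus do not cover the stretches that the miR-1a and miR-133a copies share. Windows of 24 bases exceed the mature sequences and gave no value. Mir133a-2 and Mir1b could be tested with no filter only. Both copies of Mir133a had few counted reads, and reads that match both copies were counted on neither. No paired analysis was possible because the labels give 1 group.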
